A study of Homo sapiens with 20 samples.

Results

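The cytosolic ribosomal protein genes were followed in 20 RNA-seq libraries of human keratinocytes with and without GCN2, before and after wounding. Members were the protein-coding genes named RPL or RPS with a number, with at most a letter, L or X suffix, together with RPSA, RPLP0, RPLP1 and RPLP2. The S6 kinase genes named RPS6K and all pseudogenes were left out. The rule found 82 genes, 50 of the large (60S) subunit and 32 of the small (40S) subunit, among 57500 listed genes. RPL10L had 0 reads in all 20 libraries, where a floor of 3 reads a library is 0.0867 to 0.213 CPM (counts scaled to library size), and the other 81 members were tested.

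The cells were NTERT keratinocytes, an established human line immortalized with hTERT, which carried hTERT in all 4 groups. In the study WT denotes cells with a control guide RNA. WT cells were compared with GCN2KO cells, an early-passage pool rather than 1 clone, in which CRISPR/Cas9 with guides to GCN2 had edited the gene EIF2AK4. Each genotype was left unwounded or collected 6 h after high-density wounding (HDW), with 5 libraries in each of the 4 groups. In HDW a grid of scratches was drawn through the cell layer with pipette tips. The study's HDW method first differentiates the confluent cells with added calcium and serum. The authors state that GCN2 loss can delay keratinocyte differentiation, which is implemented later. The part of differentiation in the results was not tested. Per the study's methods the replicates were plated and treated cultures, without a statement on whether they came from independent experiments. The p-values therefore set each difference against the spread between these libraries. Variation between separately edited pools of cells is not covered by them.

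EIF2AK4 was read first. Its normalized read counts (reads scaled to a common library size) were 4152 to 4555 in unwounded WT and 3980 to 4303 in wounded WT, against 806 to 962 in unwounded GCN2KO and 810 to 951 in wounded GCN2KO, a log2 fold change of -2.28 and -2.27. Libraries held 14083504 to 34611570 reads in genes. Summed keratinocyte markers lay between 22128 and 29616 CPM, led by KRT5 at 7853 to 13977. Of the 10 markers, 5 were lower and 3 higher in GCN2KO (edgeR, adjusted p of at most 0.05), unwounded and wounded alike. That is 50% and 30%, beside 33.1% and 33.4% of all genes tested in unwounded cells. In unwounded cells COL17A1 was at -1.36 on the log2 scale and KRT14 at -0.85, while KRT5 was at 0.50 and LAMB3 at 1.09. The part of these markers in the results was not tested. Fibroblast (23.1 to 36.2), immune (16.7 to 65.2) and endothelial (0.38 to 1.31) lists stayed low. The melanocyte list was at 4.54 to 7.28 CPM in WT and from 12.02 up to 22.3 CPM in GCN2KO, mostly from MITF, with TYR and SOX10 at 0. Its part in the results was not tested. Within the unwounded GCN2KO group, replicates 2 and 4 stood apart from replicates 3 and 5. Over 11077 non-member genes the correlation of log expression was 0.996 within each pair and 0.982 to 0.989 between them, and 2 and 4 lay closer to the wounded GCN2KO libraries (0.988 to 0.994) than 3 and 5 did (0.969 to 0.978). Counts over the members, the values of the members described at length and counts over other gene lists are therefore also given without each pair where that group enters.

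Ribosomal proteins and ribosomal RNA together form the small subunit, which decodes mRNA, and the large subunit, which joins amino acids into protein. Their mRNAs are among the most abundant in growing cells and are the classic TOP mRNAs, named for a terminal oligopyrimidine tract of C and T letters that begins at the cap and lets mTORC1 control their translation. GCN2 is a kinase that senses uncharged tRNA, phosphorylates eIF2 and lowers general protein synthesis. Ribosomal protein genes also have many processed pseudogenes, whose near-identical sequence can cost the parent gene uniquely mapped reads.

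The transcription start windows of members that carry the main patterns are shown here, from 10 bases before to 20 bases after the RefSeq start (RefSeq, GRCh38.p14), read 5′ to 3′ on the gene's own strand. Capitals mark every run of 8 or more C and T letters. RPS6, RPL28 and RPS4X are among the members that fell most in GCN2KO, RPL35, RPS23 and RPS27L were higher there, RPS18 fell on wounding, and RPS27 and RPL36A are shown beside their paralogs RPS27L and RPL36AL.
RPS6 (chr9:19380217-19380246, minus strand): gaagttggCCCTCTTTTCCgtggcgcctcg
RPL28 (chr19:55385922-55385951, plus strand): cctcgCCTTCCTCTTTCCgtctcaggtcgc
RPS4X (chrX:72277229-72277258, minus strand): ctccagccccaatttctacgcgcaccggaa
RPL35 (chr9:124861938-124861967, minus strand): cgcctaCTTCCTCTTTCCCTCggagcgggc
RPS23 (chr5:82278335-82278364, minus strand): cggtgCTTCTCTCTTTCgctcaggcccgtg
RPS18 (chr6:33272065-33272094, plus strand): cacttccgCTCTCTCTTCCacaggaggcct
RPS27 (chr1:153990752-153990781, plus strand): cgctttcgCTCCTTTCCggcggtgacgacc
RPS27L (chr15:63157458-63157487, minus strand): gatgccgagcgcagatcgcttgcagcttgc
RPL36A (chrX:101391001-101391030, plus strand): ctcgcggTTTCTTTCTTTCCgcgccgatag
RPL36AL (chr14:49620607-49620636, minus strand): TCTTCCCTTTCCTgttaggcgagagctgcg
RPS6 and RPL28, which fell, and RPL35 and RPS23, which were higher in unwounded GCN2KO, all hold such a run, and RPS4X and RPS27L hold none in these windows. The RefSeq promoter table matched 65 members with 80 starts. A run was present at 57 of the 80 starts (71.2%), against 12.7% of all 35116 starts in the table. The letters TATAAA, searched on both strands from 250 bases before to 50 after the start, were present at 7.5% of member starts and 11.5% of all starts. The ETS-type letters CCGGAAG were present at 33.8% and 10.3%. Windows for RPS2, RPL3L, RPL37, RPL39L, RPL5, RPL8 and other members were not analysed here.

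Together the 82 genes took a smaller share of each library in GCN2KO than in WT, and a smaller share after wounding than before. In unwounded WT they held 10.8, 10.6, 11.3, 10.5 and 11.1% of all reads in genes in replicates 1 to 5, a mean of 10.9% ± 0.344 (SD, n = 5). In wounded WT they held 9.94, 9.29, 9.81, 9.87 and 10.2% (mean 9.83% ± 0.338, n = 5). Unwounded GCN2KO libraries held 8.998, 7.46, 9.81, 7.31 and 9.76% (mean 8.67% ± 1.21, n = 5). Wounded GCN2KO libraries held 6.28, 6.59, 6.53, 6.74 and 7.26% (mean 6.68% ± 0.366, n = 5). Every unwounded library lay above every wounded library of its genotype, and every WT library lay above every GCN2KO library of the same treatment. The spread within unwounded GCN2KO followed the split described above, with replicates 2 and 4 lowest. In bulk RNA, read share cannot tell fewer transcripts per cell from a changed mix of cells or more transcripts of other genes. Both subunits moved, since 60S genes held 6.55, 5.97, 5.24 and 4.13% and 40S genes 4.33, 3.86, 3.43 and 2.55% on average in unwounded WT, wounded WT, unwounded GCN2KO and wounded GCN2KO.

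**Figure D1:**
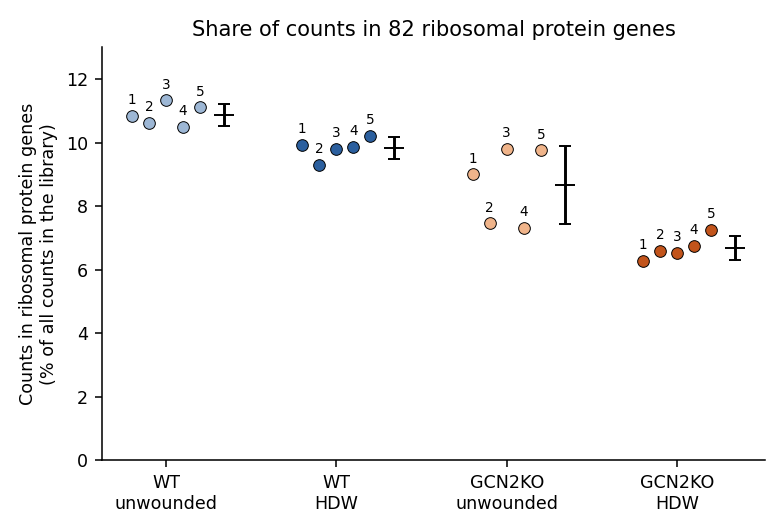
Share of all reads in genes that fell in the 82 ribosomal protein genes, in percent, for each of the 20 libraries by group, with the replicate number at each point and the group mean ± SD (n = 5). Shares ran from 10.5 to 11.3% in unwounded WT down to 6.28 to 7.26% in wounded GCN2KO, and unwounded GCN2KO replicates 2 and 4 lay below replicates 1, 3 and 5.

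Members differed widely in level. Over the length of all exonic bases, the highest levels in unwounded WT, in CPM per kilobase, included those of RPS12 (2732 ± 91.6, SD, n = 5), RPS18 (1736 ± 60.1), RPL8 (1580 ± 29.6) and RPL13A (1415 ± 58.8). The lowest were RPL10L at 0, RPL3L at 0.288, RPL39L at 4.43 and RPS27L at 7.03, all of them paralogs of other members, followed by RPL36A at 47.4. RPL10L and RPL39L are best known from testis and RPL3L from muscle. The order at the top depended on which length was used. Per kilobase of the MANE Select transcript it was RPS18 (5799), RPL13A (4052), RPLP0 (3529) and RPS12 (3471), and RPS29 moved from place 77 to place 20.

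Without wounding, more ribosomal protein genes were lower than higher in GCN2KO. Called here means an adjusted p of at most 0.05 (edgeR's quasi-likelihood test, Benjamini-Hochberg over all genes tested), and a DE gene must also have changed by at least 1 on the log2 scale. Of 81 members tested, 38 (46.9%) fell, 6 rose and 37 were not called, beside 33.1% lower and 33.4% higher among all 15348 genes tested. The median log2 fold change of the members was -0.21, against 0.00 for all genes. The 60S genes (24 lower and 4 higher of 49, median -0.23) and the 40S genes (14 lower and 2 higher of 32, median -0.20) both held calls in each direction. DE genes numbered 4 among the members, all lower, beside 8.22% of all genes as lower DE genes and 8.21% as higher ones. In 32 members every GCN2KO library lay below every WT library, beside 27% of all genes, and in 4 members every GCN2KO library lay above, beside 26.3% of all genes.

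RPS6 (ENSG00000137154, chr9:19375715-19380236), the 40S protein phosphorylated by S6 kinase, had normalized read counts of 73251, 72097, 78964, 69223 and 77347 in unwounded WT and 34143, 25234, 38647, 24373 and 41387 in unwounded GCN2KO. All GCN2KO libraries were below all WT libraries, and replicates 2 and 4 were lowest. The difference was -1.18 on the log2 scale (SE 0.129, adjusted p = 6.91e-07). It was -0.96 without GCN2KO replicates 2 and 4 and -1.40 without replicates 3 and 5. RPS4X (ENSG00000198034, chrX:72255679-72277248), an X-linked 40S protein, had 35175, 34034, 36501, 33542 and 36497 in WT and 17367, 13586, 18034, 13306 and 17477 in GCN2KO, a log2 fold change of -1.14 (SE 0.091, adjusted p = 1.89e-08). RPS2 (ENSG00000140988, chr16:1962058-1964841), a 40S protein near the path of the mRNA, had 68977, 63014, 67030, 60964 and 64419 in WT and 30947, 25796, 27454, 26152 and 27413 in GCN2KO. Its groups did not overlap and its GCN2KO libraries lay close together, with a log2 fold change of -1.23 (SE 0.074, adjusted p = 7.4e-10). RPL28 (ENSG00000108107, chr19:55385932-55403250), a 60S protein, had 37289, 37510, 40002, 38775 and 38522 in WT and 22809, 18180, 20326, 17554 and 18594 in GCN2KO, a log2 fold change of -0.97 (SE 0.078, adjusted p = 1.74e-08). RPL36A (-0.93), RPS26 (-0.86), RPL11 (-0.83) and RPL29 (-0.74) were also called lower.

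The 6 higher members were RPS27L, RPL35, RPS23, RPL37, RPL19 and RPL36AL. RPS27L (ENSG00000185088, chr15:63125872-63158021), a paralog of RPS27 known as a p53 target, had 1577.9, 1877, 1898, 1728 and 1842 in WT and 2387, 2526, 3845, 2753.5 and 3640 in GCN2KO. Its lowest GCN2KO library exceeded its highest WT library, and the log2 fold change was 0.77 (SE 0.117, adjusted p = 2.51e-05). RPL35 (ENSG00000136942, chr9:124857880-124861981), which sits at the exit of the nascent chain, had 23140, 23786, 24664, 24334 and 24362 in WT and 31308, 27035, 44052, 28191 and 41723 in GCN2KO. Replicates 3 and 5 were highest, and the log2 fold change was 0.52 (SE 0.119, adjusted p = 0.00104). RPS23, a protein of the decoding centre, and RPL37, a 60S protein, both rose by 0.38, and RPL19 (0.24, adjusted p = 0.0247) and RPL36AL (0.18, adjusted p = 0.034) by less. Both of the last calls were lost without WT replicate 1 or 4 or without GCN2KO replicate 3 or 5, and that of RPL36AL also without WT replicate 2 or 5 (adjusted p of 0.0519 to 0.0874 for RPL36AL and 0.051 to 0.0616 for RPL19).

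How many members were called in unwounded cells depended on which GCN2KO libraries entered. Without replicates 2 and 4 there were 31 lower and 17 higher members and a median of -0.07, beside 33.5% lower and 33.3% higher among all genes in that fit, so that the share of members called lower was then near that of all genes. Without replicates 3 and 5 there were 60 lower and 4 higher and a median of -0.38, beside 33.1% lower and 32.4% higher among all genes. Without replicates 2 and 4, and then without 3 and 5, the log2 fold change of RPS4X was -0.99 and -1.24, that of RPS2 -1.18 and -1.22 and that of RPL28 -0.90 and -0.97. Among the higher members it was 0.89 and 0.53 for RPS27L, 0.70 and 0.27 for RPL35, 0.47 and 0.30 for RPS23 and 0.48 and 0.29 for RPL37, all called in both fits. Between these fits, RPL19 (0.37 and 0.11) and RPL36AL (0.25 and 0.09) were called in the former only. Beside this, short genes that are not members (a MANE Select transcript of up to 800 bases) held 2.11% of reads on average in unwounded WT and 2.61% in unwounded GCN2KO, reaching 3.04% in replicate 3 and 2.91% in replicate 5 against 2.25% in replicate 2 and 2.43% in replicate 4. Their median log2 fold change was 0.29, while that of members in the same length class was -0.16. The part of transcript length in these counts was not tested.

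After wounding, nearly all ribosomal protein genes were lower in GCN2KO than in WT. Of 81 members, 75 (92.6%) fell, 4 rose and 2 were not called, beside 35.8% lower and 35.9% higher among all 15855 genes tested. The median was -0.57, against 0.00 over all genes. The calls covered 45 of 49 60S genes as lower (2 higher, median -0.47) and 30 of 32 40S genes (2 higher, median -0.60). DE genes numbered 11, of which 10 were lower and RPS27L was higher, beside 7.83% of all genes as lower DE genes and 7.1% as higher ones. In 73 members all GCN2KO libraries lay below all WT libraries, beside 29.3% of all genes. Lower and higher calls were 75 and 3 to 4 with any 1 library left out.

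RPS6, RPS4X, RPS2 and RPL28 were lower in these libraries too. These genes were named for their values in both comparisons, so the wounded libraries are no separate test of them. RPS6 had 67261, 61366, 66230, 67613 and 70523 in wounded WT and 21797, 23279, 22207, 23916 and 26408 in wounded GCN2KO, a log2 fold change of -1.50 (SE 0.057, adjusted p = 1.39e-10). RPS4X had 34692, 30950, 33119, 34446 and 34946 in WT and 10895, 12342, 11854, 12250 and 14581 in GCN2KO (-1.44, SE 0.068, adjusted p = 7.14e-10). RPS2 had 68020, 63843, 68682, 66747 and 66705 in WT and 23530, 25349, 24017, 23509 and 28472 in GCN2KO (-1.42, SE 0.055, adjusted p = 1.6e-10). In each of these genes the highest GCN2KO library was well under the lowest WT library. RPL28 had 37865, 36131, 38319, 36731 and 40669 in WT and 14719, 15961, 15636, 15901 and 18471 in GCN2KO (-1.23, SE 0.058, adjusted p = 7.44e-10). The other lower DE genes were RPL3L (-1.68), RPS26 (-1.08), RPL36A (-1.05), RPS3A (-1.02), RPL7A (-1.01) and RPL29 (-1.004).

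RPS27L ran against the rest, with 1135, 1261, 1303, 1094 and 1239 in wounded WT and 3255, 2721, 2941, 3069.5 and 2075 in wounded GCN2KO, a log2 fold change of 1.22 (SE 0.099, adjusted p = 8.77e-08). RPL37 (0.22, adjusted p = 0.000141), RPL35 (0.14, adjusted p = 0.00655) and RPS23 (0.11, adjusted p = 0.0402) were the remaining higher calls, and the libraries of RPL35 and RPS23 overlapped between genotypes. The RPS23 call was lost with any of 8 libraries left out, that is WT replicates 1 to 4 and GCN2KO replicates 2 to 5 (adjusted p of 0.0523 to 0.0873). RPL36AL (0.09) and RPL19 were not called.

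**Figure D2:**
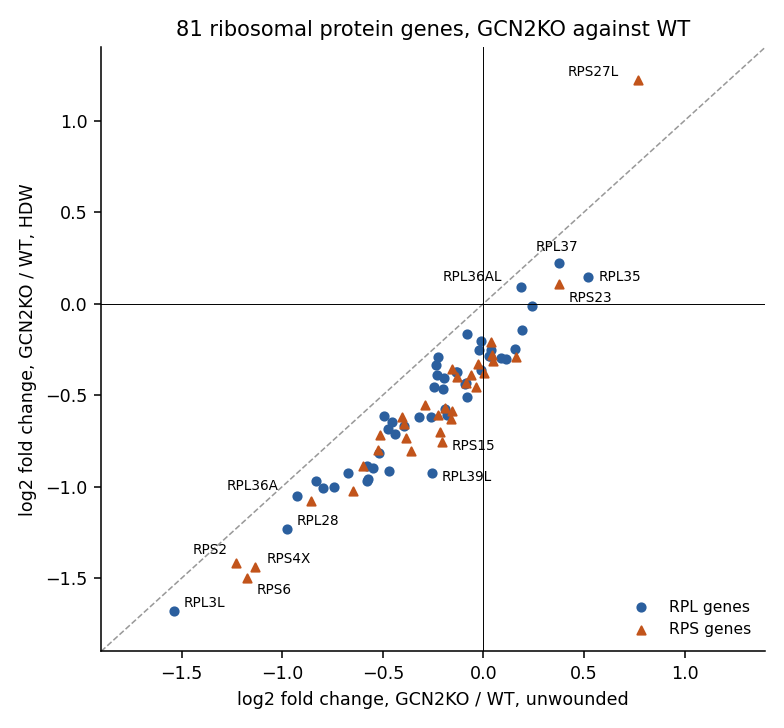
Log2 fold change of GCN2KO against WT for 81 members, in unwounded cells (x axis) and after HDW (y axis), with large-subunit and small-subunit genes marked separately and a dashed line where both are equal. RPS6, RPS4X, RPS2 and RPL28 lie at the lower left and RPS27L at the upper right (0.77 and 1.22), and the members' median is -0.21 on the x axis and -0.57 on the y axis.

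**Figure D3:**
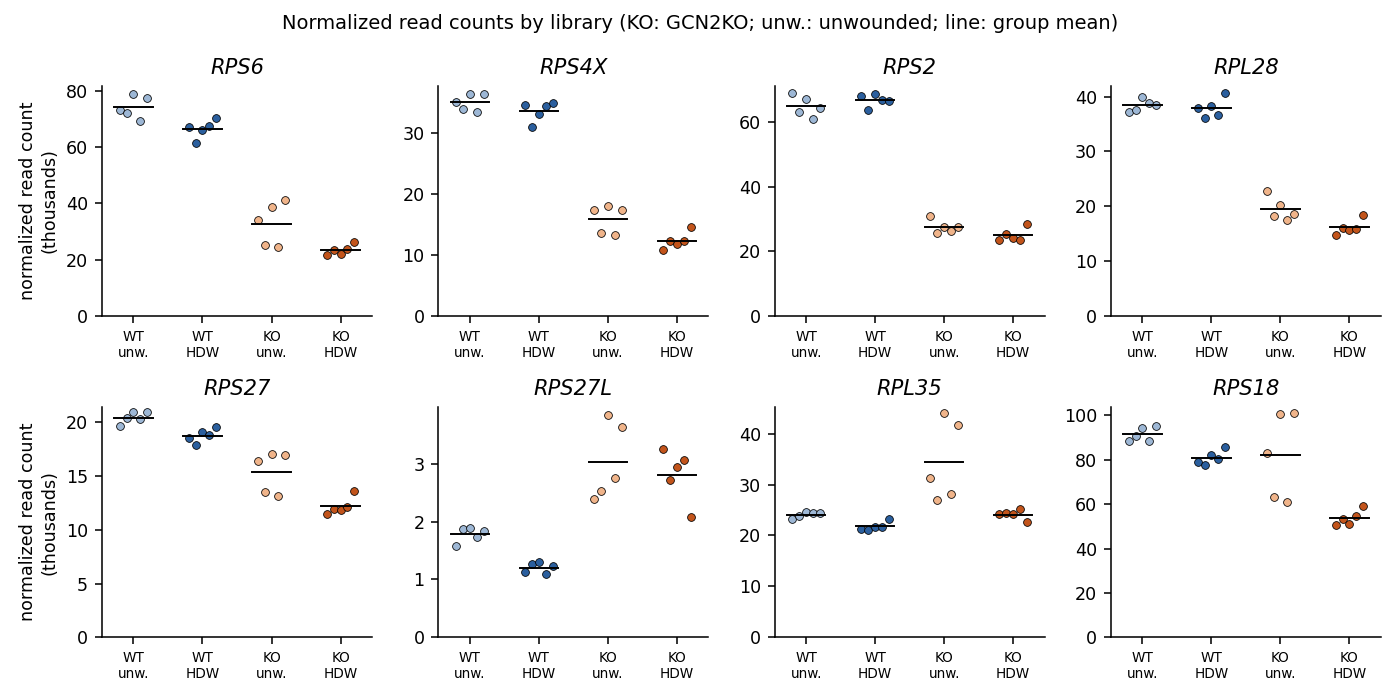
Normalized read counts of 8 members in each of the 20 libraries by group, on axes that start at 0 and differ between genes, with a line at the group mean. RPS6, RPS4X, RPS2 and RPL28 separate by genotype in both treatments, RPS27L is higher in GCN2KO, and RPS18 and RPL35 show unwounded GCN2KO replicates 3 and 5 above replicates 2 and 4.

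In WT cells ribosomal protein mRNAs were slightly lower after wounding. Of 81 members, 48 fell and 33 were not called, beside 25.2% lower and 26.1% higher among 15348 genes. No member was called higher by edgeR as described above or by DESeq2, and 1 was higher at an unadjusted p under 0.05. Other edgeR settings called up to 2 higher, namely 2 with no filter on low counts or without unwounded WT replicate 1 and 1 in a fit blocked on replicate number. The median was -0.12. No member was a DE gene, beside 4.17% of all genes in either direction. In 21 members every wounded library lay below every unwounded library, beside 17.7% of all genes, and the other 60 overlapped. The count depended on the fit. With all 20 libraries sharing 1 estimate of the spread, 1 member was called lower.

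RPS27L fell most clearly, from 1577.9 to 1898 in unwounded WT to 1094 to 1303 in wounded WT, a log2 fold change of -0.57 (SE 0.055, adjusted p = 6e-07). RPS15A (-0.24, adjusted p = 0.00071) and RPL21 (-0.21, adjusted p = 0.000675), of the 40S and 60S subunit, followed. RPS18, in the head of the small subunit, had 88621, 90812, 94484, 88502 and 95180 before wounding and 78907, 77689, 82183, 80220 and 85585 after (-0.18, SE 0.037, adjusted p = 0.000778). Its groups did not overlap. RPS27, a 40S protein, fell by 0.13 on the log2 scale (SE 0.033, adjusted p = 0.00429). RPL13 (0.14, adjusted p = 0.0762) and RPS15 (0.12, adjusted p = 0.101) were above 0 and not called.

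In GCN2KO cells 72 of 80 members tested fell on wounding and none rose, beside 10.8% lower and 11.9% higher among 15791 genes (RPL3L did not pass the filter on low counts here). DESeq2 also called no member higher, and none was higher at an unadjusted p under 0.05. The median was -0.41, against 0.00 for all genes. The 60S genes (42 lower of 48, median -0.38) and 40S genes (30 lower of 32, median -0.45) both took part. No member was a DE gene, beside 0.671% of all genes in either direction. In 42 members the wounded libraries all lay below the unwounded ones, beside 7.65% of all genes, and the other 38 overlapped.

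RPS18 had 83185, 63471, 100760, 61162 and 101230 in unwounded GCN2KO and 50673, 53168, 51157, 54798 and 59186 after wounding, a log2 fold change of -0.60 (SE 0.131, adjusted p = 0.00739). All 5 wounded libraries were below the lowest unwounded library, and unwounded replicates 2 and 4 came nearest to them. RPS21, a 40S protein, had 25824, 20059, 32947, 19929 and 32360 before and 16002, 16870, 16386, 17200 and 18249 after (-0.62, SE 0.130, adjusted p = 0.00585). RPL39, a short protein of the exit tunnel, fell by 0.53 on the log2 scale (SE 0.106, adjusted p = 0.00432) and RPS19, a gene mutated in Diamond-Blackfan anaemia, by 0.37 (SE 0.075, adjusted p = 0.00488). RPS27L (-0.10, adjusted p = 0.639) and RPL22 (-0.09, adjusted p = 0.273) were among the 8 not called.

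These counts also rested on the split among unwounded GCN2KO libraries. Without replicates 2 and 4, 77 members fell and the median was -0.56, beside 17.7% lower among all genes in that fit, and without replicates 3 and 5, 26 fell and the median was -0.25, beside 4.25%. In the same order, the log2 fold change was -0.81 and -0.36 for RPS18, -0.83 and -0.37 for RPS21, -0.70 and -0.34 for RPL39 and -0.47 and -0.28 for RPS19, all called in both. Of short genes that are not members, 94 of 360 fell and 4 rose on wounding in GCN2KO (median -0.23), against a median of -0.43 for members of that length. Members with a MANE Select transcript over 1200 bases had a median of -0.33, against 0.02 for other genes of that length. The part of transcript length was not tested.

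**Figure D4:**
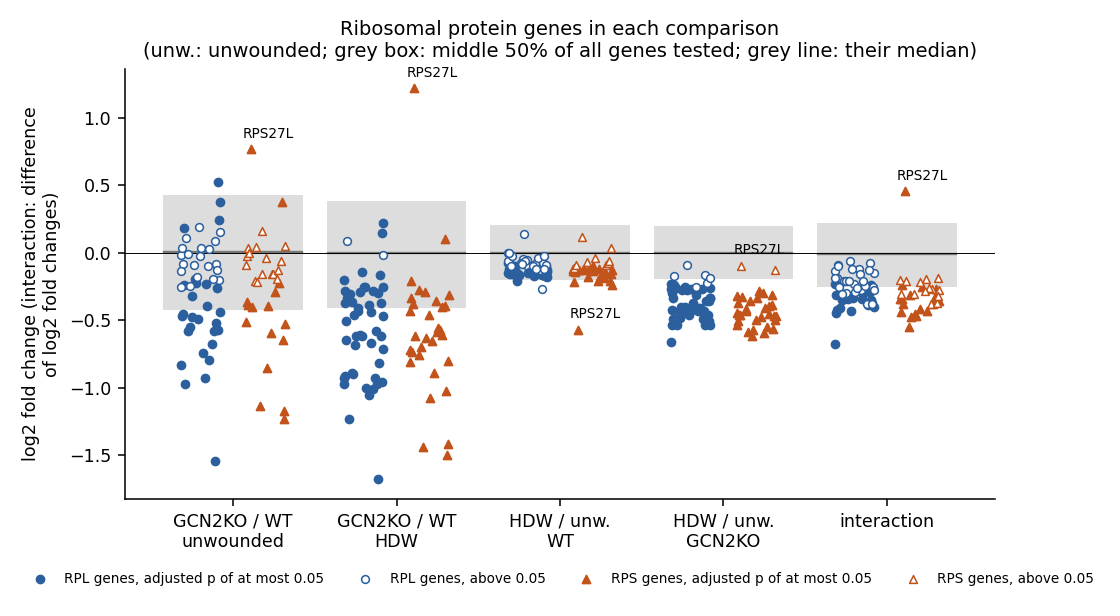
Log2 fold change of each tested member in the 4 pairs of groups and in the interaction (circles, large subunit; triangles, small subunit; filled, adjusted p of at most 0.05), with a grey box for the middle 50% of all genes tested and a grey line at their median. Medians of members are -0.21, -0.57, -0.12, -0.41 and -0.29.

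Whether wounding acted differently in GCN2KO than in WT was tested as the interaction, the wounding effect in GCN2KO minus that in WT. It was negative for most members: 37 of 81 were called lower, 1 (RPS27L) higher and 43 were not called, beside 12.5% lower and 11.2% higher among 16536 genes. The median was -0.29, against -0.01 for all genes, with 20 of 49 60S genes and 17 of 32 40S genes called lower. No member reached 1 in size on the log2 scale in the edgeR fit, at any p, beside 3.31% of all genes as DE genes in either direction. DESeq2 called 45 members lower and 1 higher.

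RPL8, a 60S core protein, had 97729, 100080, 98196, 95186 and 99074 in unwounded WT and 97909, 93180, 98026, 95745 and 104870 in wounded WT. In GCN2KO it had 75761, 56194, 81377, 59044 and 81048 before and 47407, 54171, 51271, 47268 and 59375 after wounding. The WT groups overlapped in full and the GCN2KO groups overlapped only where unwounded replicates 2 and 4 met the highest wounded library, and the interaction was -0.44 (SE 0.125, adjusted p = 0.0115). RPL13 (-0.43, SE 0.117, adjusted p = 0.00926) and RPL8 were called lower in all 30 alternatives run. RPL39L (-0.67), RPS15 (-0.55) and RPS18 (-0.43) had adjusted p of 0.044, 0.0138 and 0.0357. RPS27L had an interaction of 0.46 (SE 0.166, adjusted p = 0.0486), and this call was lost in 19 of its alternatives. Without unwounded GCN2KO replicates 2 and 4 the interaction was called lower in 76 members and higher in 0, with a median of -0.46, beside 17.4% lower and 15.5% higher among all genes. Without replicates 3 and 5 it was lower in 5 and higher in 1, with a median of -0.17, beside 11.6% lower and 9.12% higher, so that the share of members called was then under that of all genes. In these fits RPL8 was at -0.61 and -0.31 and RPL13 at -0.53 and -0.32, called in both. RPL39L (-0.94 and -0.32), RPS15 (-0.69 and -0.36) and RPS18 (-0.65 and -0.20) were called in the former of the 2 fits and not in the latter, and RPS27L (0.33 and 0.69) in the latter and not in the former. With 1 library of that group left out, lower calls were 59 without replicate 2, 62 without replicate 4, 14 without replicate 3 and 15 without replicate 5. They were 21, 22 and 19 without unwounded WT replicates 1, 2 and 4, 22 and 15 without wounded WT replicates 3 and 5, and 21, 22 and 18 without wounded GCN2KO replicates 1, 2 and 3. Short non-member genes had an interaction median of -0.25 (82 of 369 lower, 6 higher), against -0.32 for members of that length and -0.26 for members over 1200 bases.

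The members can also be read by role. The P stalk, built from RPLP0, RPLP1 and RPLP2, recruits elongation factors to the ribosome. RPLP0 had 107350 to 117690 in unwounded WT and 68816 to 92208 in unwounded GCN2KO, with a log2 fold change of -0.47 (adjusted p = 0.000166), and fell by 0.68 in wounded cells (adjusted p = 1.6e-07). RPLP1 had log2 fold changes of -0.20 (adjusted p = 0.0326) and -0.41 (adjusted p = 1.24e-06), and RPLP2 of -0.13 (adjusted p = 0.119) and -0.37 (adjusted p = 5.74e-06), and the interaction, which tests the difference between treatments, was -0.24 for RPLP2 (adjusted p = 0.0352), -0.21 for RPLP1 (adjusted p = 0.0787) and -0.21 for RPLP0 (adjusted p = 0.163). The unwounded RPLP1 call was lost without WT replicate 2, 3 or 5 or GCN2KO replicate 2 or 4 (adjusted p of 0.0521 to 0.0824). RPL5 and RPL11 carry 5S rRNA into the ribosome and, when free, bind MDM2. RPL11 had 35654 to 41257 in unwounded WT and 18127 to 23479 in unwounded GCN2KO (log2 fold change -0.83, adjusted p = 2.34e-07), and -0.97 after wounding (adjusted p = 2.41e-09). RPL5 differed by -0.44 (adjusted p = 0.00257) and -0.71 (adjusted p = 7.62e-08). Without unwounded GCN2KO replicates 2 and 4, and then without 3 and 5, the unwounded values were -0.36 and -0.55 for RPLP0, -0.72 and -0.92 for RPL11 and -0.26 and -0.63 for RPL5, all called, and -0.11 and -0.26 for RPLP1 and -0.05 and -0.16 for RPLP2, called in the latter fit and not in the former. The interaction of RPLP2 was then -0.32, called, and -0.22 (adjusted p = 0.0546).

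Paralogs of the same protein did not share 1 direction in the comparison of GCN2KO with WT. RPS27 fell (19704 to 20942 against 13142 to 17079 in unwounded cells, log2 fold change -0.40, adjusted p = 0.000344; -0.62 after wounding) where RPS27L rose. RPL36A fell by 0.93 and 1.05 on the log2 scale in unwounded and wounded cells, where RPL36AL was at 0.18 (adjusted p = 0.034) and 0.09 (adjusted p = 0.104). RPL3 (-0.67 and -0.92) and its paralog RPL3L (-1.54 and -1.68) both fell, the latter from group means of 22.9 and 18.1 normalized reads in WT to 8.25 and 6.24 in GCN2KO. RPL39L, at 56.8 to 152 normalized reads over all libraries, had -0.25 (adjusted p = 0.239) unwounded and -0.93 (adjusted p = 1.63e-05) wounded, while RPL39 had 0.09 (adjusted p = 0.466) unwounded and -0.30 (adjusted p = 0.000162) wounded. Without unwounded GCN2KO replicates 2 and 4, and then without 3 and 5, the unwounded values were -0.28 and -0.50 for RPS27, -0.80 and -1.07 for RPL36A, -0.58 and -0.74 for RPL3 and -1.58 and -1.26 for RPL3L, all called. RPL39L (0.01 and -0.62) and RPL39 (0.26 and -0.10) changed sign between these fits. The difference between paralogs was not itself tested. With the 5 L-suffixed paralogs left out, 77 members gave 37 lower (48.1%) and 4 higher (5.19%) calls for GCN2KO in unwounded cells. After wounding they gave 73 lower (94.8%) and 3 higher (3.9%). Among all genes tested, 33.1% were lower and 33.4% higher in unwounded cells, and 35.8% and 35.9% after wounding.

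Reads in pseudogenes were few beside those of most parents and moved the same way. The annotation held 1586 pseudogenes named after members, of which 1024 had at least 1 read, and together they held 0.272, 0.25, 0.195 and 0.154% of reads in unwounded WT, wounded WT, unwounded GCN2KO and wounded GCN2KO. The median member had 0.61% as many reads in its pseudogenes as in itself, 43 members had under 1%, 32 had 1 to 10% and 6 had 10% or more. The largest were RPL36A (37.8%), RPL17 (30.2%), RPS2 (21.6%), RPL29 (12.4%) and RPL39 (10.9%), and their values are uncertain. With pseudogene reads added to their parents, RPS2 stayed at -1.23 and -1.42 in unwounded and wounded cells, RPL36A was at -0.91 and -1.09, RPL17 at -0.43 and -0.72 and RPL29 at -0.75 and -1.01. Counts of lower calls were then 38, 75, 48, 73 and 38 in the 5 comparisons. Only uniquely mapped reads were counted, so reads that matched a member and its pseudogene equally well are in neither value, and their number is not known from these counts.

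Some members share exonic bases with other genes, and the strand setting of the counting was not given in the sources used here. RPL10 shares 53.4% of its exonic bases, most of them with DNASE1L1 on the opposite strand, RPL17 35.5% with readthrough and other genes, RPS10 31.5% (mainly the readthrough RPS10-NUDT3), RPS2 25.9%, RPL36A 22.5%, RPL30 21.9% (mainly RPL30-AS1, opposite strand) and RPS28 20.6% (mainly KANK3, opposite strand). After wounding RPL10 differed by -0.25 (adjusted p = 0.000138), RPL17 by -0.67 (adjusted p = 4.89e-07) and RPS10 by -0.46 (adjusted p = 2.14e-06) between genotypes, and these values are uncertain for that reason.

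The genes around the members were mostly near 0, with a middle value of their medians of -0.02 in unwounded cells and -0.04 after wounding. Each member was set beside the median of all other genes tested within 5 Mb on each side. In GCN2KO against WT, 62 of 81 members lay below their neighbours' median in unwounded cells (median difference -0.23) and 75 of 81 after wounding (median difference -0.51). RPS6, at -1.18 and -1.50, lay among neighbours at 0.20 and 0.22, RPS2 among neighbours at -0.02 and -0.13, RPL28 among neighbours at 0.05 and 0.09, and RPS27L rose among neighbours at -0.06 and -0.05. Chromosome 5 stood out in the whole table. Its 692 genes tested in unwounded cells had a median of 0.35 in GCN2KO against WT, and its 718 genes tested after wounding a median of 0.36. RPL37, RPS23 and RPS14 are the 3 members there. RPS23 rose by 0.38 and 0.11 among neighbours at 0.51 and 0.40, and RPL37 by 0.38 and 0.22 among neighbours at 0.20 and 0.13. RPS14, the 5q syndrome gene, had -0.16 (adjusted p = 0.264) and -0.63 (adjusted p = 3.43e-07) among neighbours at 0.12 and 0.23, and its unwounded value was 0.05 without replicates 2 and 4 and -0.40 without replicates 3 and 5. RPL35, on chromosome 9, rose among neighbours at -0.07 and -0.08. The part of the chromosome 5 level in the values of its members was not tested.

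**Figure D5:**
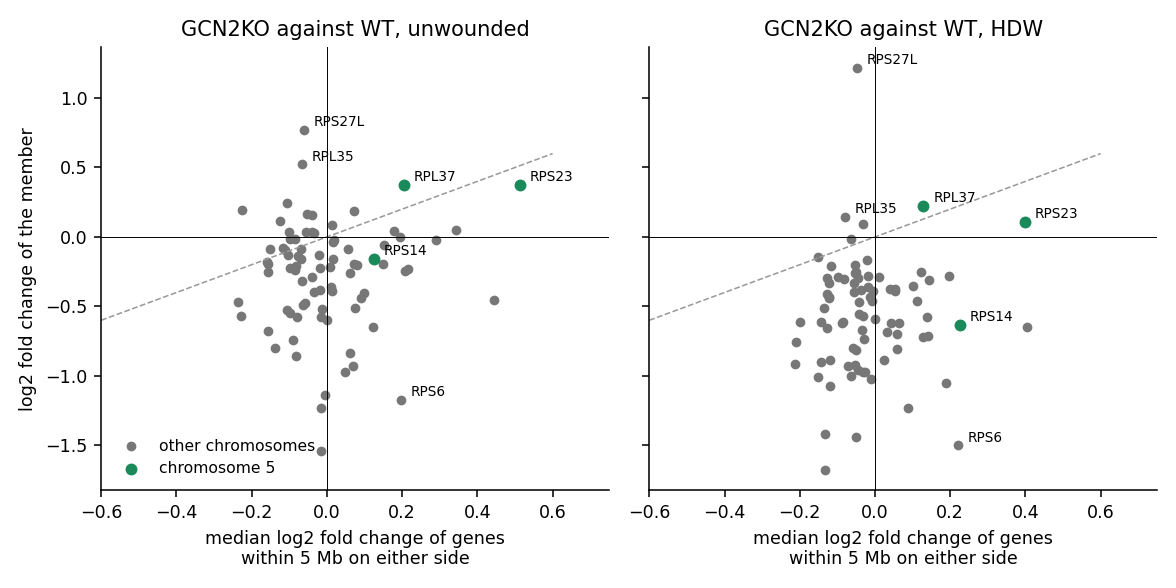
Log2 fold change of each member in GCN2KO against WT (y axis) against the median log2 fold change of the other tested genes within 5 Mb on each side (x axis), unwounded and after HDW, with the 3 members on chromosome 5 in green. Most members lie below the line of equality, 62 of 81 in unwounded cells and 75 of 81 after wounding.

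The members were also split by the C and T run at the start, as a description. After wounding, the 54 tested members with a run had a median of -0.52 in GCN2KO against WT (50 lower) and the 10 without a run in their windows a median of -0.62 (9 lower). In unwounded cells the medians were -0.19 and -0.31. Other genes with a run had a median of -0.07 after wounding and those without 0.02.

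Genes of related machinery were set beside the members, as lists that are not part of the rule. Their counts are to be read beside the shares of all genes called in each comparison, given above. Other TOP mRNAs and elongation factors fell with the members in GCN2KO, 13 of 20 lower and 1 higher in unwounded cells (median -0.59) and 18 lower and 1 higher after wounding (median -0.60), which is 65% and 90% lower, beside 33.1% and 35.8% of all genes. Among them HNRNPA1, an RNA-binding protein, fell by 1.61 and 1.59 on the log2 scale, NAP1L1, a histone chaperone, fell by 1.08 in unwounded cells, and EEF1D, an exchange factor of elongation, rose by 0.35 and 0.24. On wounding 3 were lower in WT (median -0.06) and 7 in GCN2KO (median -0.19), and 4 had a lower interaction (median -0.14), which is 15%, 35% and 20%, beside 25.2%, 10.8% and 12.5% of all genes. Without unwounded GCN2KO replicates 2 and 4, or without 3 and 5, the unwounded list had 13 lower in either case (medians -0.52 and -0.59), wounding in GCN2KO 12 and 1 lower, and the interaction 9 and 1.

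Ribosome biogenesis genes make and process rRNA. In GCN2KO 15 of 32 were lower and 3 higher in unwounded cells (median -0.06), and 15 lower and 13 higher after wounding (median -0.07). The lower calls are 46.9% of the list in both, beside 33.1% and 35.8% of all genes, and the higher ones 9.38% and 40.6%, beside 33.4% and 35.9%. FBL, the rRNA methyltransferase fibrillarin, fell by 1.34 and 1.43 on the log2 scale, and UBTF, a factor of RNA polymerase I, by 0.99 and 0.68. On wounding 19 rose and 6 fell in WT (median 0.20), where the members fell, and 18 rose and 1 fell in GCN2KO (median 0.33), so that 59.4% and 56.2% rose, beside 26.1% and 11.9% of all genes. BOP1, of a 60S processing complex, rose by 0.63 and NOP2, an rRNA methyltransferase, by 0.53 in WT, and RRS1 by 0.86 and NOP56 by 0.49 in GCN2KO. The interaction was called higher in 4 and lower in 1 (median 0.10), and 12.5% higher lies beside 11.2% of all genes. Without unwounded GCN2KO replicates 2 and 4, or without 3 and 5, wounding in GCN2KO had 18 higher in either case, unwounded GCN2KO 16 and 15 lower, and the interaction 10 and 5 higher.

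Ribosomal proteins outside the rule and the p53 targets gave mixed counts. Of 6 paralogs and related ribosomal genes, 2 were higher and 1 lower in unwounded GCN2KO (median 0.04) and 1 higher and 3 lower after wounding (median -0.11). On wounding 1 was higher in WT (median 0.00) and 1 lower in GCN2KO (median -0.22), and 2 had a lower interaction (median -0.24). RPL26L1, a paralog of RPL26, rose by 1.16 and 0.84, and RACK1, a scaffold on the 40S head, fell by 0.60 and 0.80. Of 14 p53 targets, the class to which RPS27L belongs, 7 were higher and 3 lower in unwounded GCN2KO (median 0.25) and 9 higher and 2 lower after wounding (median 0.28), which is 50% and 64.3% higher, beside 33.4% and 35.9% of all genes. GDF15, a secreted stress cytokine, was at 2.18 and CDKN1A, the p21 cell cycle inhibitor, at 1.51 in unwounded cells, while TP53I3 was at -1.46 in unwounded and -1.23 in wounded cells. Without unwounded GCN2KO replicates 2 and 4, or without 3 and 5, 7 p53 targets were higher in either case and 3 and 4 lower in unwounded cells, and 3 and 2 of the 6 paralogs were higher and 1 and 2 lower. On wounding 2 p53 targets rose and 8 (57.1%) fell in WT, beside 25.2% lower among all genes (median -0.21). In GCN2KO 1 rose and 2 (14.3%) fell, beside 10.8% lower among all genes (median -0.06). Their interaction was higher in 2 and lower in 2 (14.3% each), beside 11.2% and 12.5% of all genes (median 0.14).

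Nuclear genes of the mitochondria did not fall with the members in unwounded GCN2KO. Of 78 mitochondrial ribosomal protein genes, 41 rose and 12 fell (median 0.23), and of 76 oxidative phosphorylation genes, 51 rose and 4 fell (median 0.38), so that 52.6% and 67.1% rose, beside 33.4% of all genes. After wounding 28 rose and 28 fell (median 0.05), and 43 rose and 15 fell (median 0.17), so that 35.9% and 56.6% rose, beside 35.9% of all genes. On wounding within GCN2KO both lists fell more than they rose, with 22 lower and 1 higher of the mitochondrial ribosomal genes (median -0.22) and 39 lower and 0 higher of the oxidative phosphorylation genes (median -0.29), 28.2% and 51.3% beside 10.8% of all genes. In WT 15 and 9 rose and 20 and 27 fell (medians 0.00 and -0.07). That is 19.2% and 11.8% higher, beside 26.1% of all genes, and 25.6% and 35.5% lower, beside 25.2%. Their interactions were called lower in 18 and 15 and higher in 0 and 0 (medians -0.19 and -0.24). The lower calls are 23.1% and 19.7%, beside 12.5% of all genes, and 11.2% of all genes were called higher. These counts also rested on which unwounded GCN2KO libraries entered. Without replicates 2 and 4, or without 3 and 5, 50 and 31 of the mitochondrial ribosomal genes and 62 and 43 of the oxidative phosphorylation genes were higher in unwounded GCN2KO, 43 and 5, and 56 and 8, fell on wounding in GCN2KO, and 44 and 8, and 48 and 11, had a lower interaction.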

How the data were processed

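RNA-seq libraries of NTERT keratinocytes were grouped by genotype and treatment from their labels. The authors trimmed reads (Trimmomatic), aligned them to GRCh38 (STAR), and only reads with a unique position were assigned to genes, by their exons (featureCounts). Each deposited file lists these unnormalized counts by Ensembl gene, and the annotation release, the strand setting and the handling of overlapping genes are not given in the sources used here. The authors ran DESeq2. Genes were named through GENCODE 44, which matched 56410 of 57500 IDs and left 1090 unnamed.

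Counts were tested with edgeR 4.0.16 (R 4.3.3; TMM, filterByExpr with a minimum count of 10 and total of 15, quasi-likelihood F test, Benjamini-Hochberg over all genes tested), each pair of groups on its own 10 libraries and the interaction on all 20. DESeq2 1.42.0 was an alternative, with others on normalization, filter, samples and pseudogene reads. The standard error is the size of the log2 fold change divided by the square root of F. For display, counts were divided by each library's TMM effective size relative to the mean size. Tables and figures used Python 3.11.15, numpy 2.4.6, pandas 2.3.3 and matplotlib 3.10.9. On simulated counts for GCN2KO against WT in unwounded cells, over 15209 genes, 100 of 100 genes changed by 1 on the log2 scale, 76 of 100 changed by 0.4 and 10 of 14950 unchanged genes were called. The simulation drew libraries independently, with the same dispersion for every gene and without the split seen among unwounded GCN2KO libraries. Its call rates therefore check the code and need not hold for the real libraries. TMM factors were 0.958 to 1.03. Floors cover counting error only.

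Members and gene lists were chosen with earlier results of these data known. Named members were the 3 higher and 3 lower with the smallest adjusted p in each comparison, all DE genes, the 5 highest and 5 lowest levels, the P stalk, the 5S proteins, paralogs with counterparts, RPS4X, the 5 with most pseudogene reads and those sharing at least 20% of exonic bases. Other lists gave up to 2 higher and 2 lower genes. RPS14, RPS15, RPS21, RPS29, RPL13, RPL22 and the chromosome 5 values were added after their values were seen. Some members that this rule names are not reported here. Leaving out pairs of unwounded GCN2KO libraries and the MANE Select length were alternatives chosen after seeing the data.

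Replicate numbers are shared between groups, but deviations of same-numbered libraries from their group means correlated by 0.0228, 0.0332, 0.0107 and -0.109 on average in the 4 pairs of groups, so the numbers were not taken to pair samples.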

Additional observations from a re-analysis of the deposited data

Results flagged for a closer look

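Of 172 sets of 5 libraries (the summed share and the named members in each group), 1 had a library whose gap to its neighbour exceeded Dixon's 95% critical value for 5 samples (0.71), where chance gives about 8.6. RPS15 was lowest in wounded WT replicate 2, at 15100 against 15917 to 16156.

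The test of the difference itself called the wounding effect different between genotypes for 18 named members. Values are the effect in GCN2KO minus that in WT on the log2 scale. In the large subunit these were RPL39L (-0.67), RPL8 (-0.44), RPL13 (-0.43), RPL39 (-0.38), RPL35 (-0.37), RPL13A (-0.35), RPLP2 (-0.24) and RPL30 (-0.23). In the small subunit they were RPS15 (-0.55), RPS14 (-0.47), RPS21 (-0.45), RPS18 (-0.43), RPS10 (-0.42), RPS12 (-0.34), RPS23 (-0.27), RPS28 (-0.26), RPS19 (-0.24) and, in the other direction, RPS27L (0.46). The RPS27L call had an adjusted p of 0.0486 and the RPL35 call one of 0.0478, and they were lost in 19 and 20 of the 30 alternatives each. Those of RPS19, RPS28, RPL13A and RPL30 were lost in 19, 18, 17 and 16 of 30. For RPL39L, RPLP2, RPS12 and RPS18 it was 14, 13, 13 and 12, and for RPS23 and RPL39 8 and 7. RPS10 and RPS15 lost the call in 2 and 1, and RPL8 and RPL13 in 0. The count of 18 is no test of the members. RPL8, RPL13 and RPS27L were named in part for their interaction, and RPS14, RPS15 and RPS21 were added after their values were seen. Over all 81 members tested, 37 were called lower and 1 higher, beside 12.5% lower and 11.2% higher among all genes.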

How the results depend on the processing

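Counts and medians kept within 1.5 times or within the spread between replicates in 141 values from other settings and 171 with 1 library left out, and moved further in 17 and 29. For GCN2KO against WT in unwounded cells, 17 members were higher without GCN2KO replicates 2 and 4, and 60 were lower with a median of -0.38 without replicates 3 and 5. After wounding, 2 were higher with all 20 libraries in 1 fit. For wounding in WT, 2 were higher with no filter on low counts, and 1 was lower with all 20 libraries in 1 fit. For wounding in GCN2KO, 26 were lower with a median of -0.25 without replicates 3 and 5. The interaction was called lower in 15 members with library size alone, in 76 (median -0.46) without replicates 2 and 4 and in 5 (median -0.17) without replicates 3 and 5. It was called higher in 0 members with TMM factors computed without ribosomal protein and mitochondrial genes, with pseudogene counts added, and without replicates 2 and 4. With 1 library left out, higher calls ranged from 0 to 2 for wounding in WT and from 0 to 1 in the interaction, and lower calls in the interaction from 14 to 62. Single members kept their direction and call in 877 values with 1 library left out, where 176 lost and 7 gained a call, and in 808 from other settings, where 49 lost and 13 gained one. Reversed single members were RPL39L (0.012) and RPS14 (0.048) for unwounded GCN2KO without replicates 2 and 4, RPL39 (-0.10) for unwounded GCN2KO without replicates 3 and 5, and RPS27L (0.14) for wounding in GCN2KO without replicates 3 and 5. None of these 4 was called in the comparison. The causes were not tested. Per-length levels moved in 13 cases and not in 5 with another gene length.

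With the replicate number as a block, GCN2KO gave 7 higher and 43 lower members in unwounded cells and 3 and 75 after wounding, wounding gave 1 higher and 50 lower in WT and 0 and 57 in GCN2KO, and the interaction gave 1 and 39. Except for fits without a pair of unwounded GCN2KO libraries, shares of all genes called in alternative fits are not given here. Counts from those other fits only show how calls of members shift with the setting. The samples share only a number. Values for low members such as RPL3L and RPL39L are limited by their few reads.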
